A study of Homo sapiens with 4 samples.

Results

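Messenger RNA of 10 genes of the IL6 cytokine family and its STAT3 axis was compared between SCC-15 cells given a microRNA mimic and SCC-15 cells given a negative control oligonucleotide. The genes encode 3 ligands (IL6, IL11 and LIF), 4 receptor chains (IL6R, IL6ST, OSMR and LIFR), the transcription factor STAT3 and 2 feedback inhibitors (SOCS1 and SOCS3). They were chosen by name, with earlier results of these data known, as 10 of 18132 genes named on the array. They are read by the 37 of 49293 probe sets that the platform annotation assigns to one of them alone. SCC-15 is an established line of human tongue squamous cell carcinoma. One group received a synthetic microRNA mimic and the other the negative control miR-NC. Per the labels' protocols, cells grew for 24 h before transfection, the oligonucleotide concentration was 30 nM, and RNA was taken 36 h after transfection. No untransfected group was analysed here. Each group has 2 arrays, numbered replicates 1 and 2. Nothing in the labels ties them to separate cultures, so a p-value here rests on array-to-array spread that may be technical only.

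Cytokines of this family signal through receptor complexes that share the chain gp130, the product of IL6ST. Ligand-specific chains (IL6R for interleukin 6, LIFR for LIF, OSMR for oncostatin M) join gp130, JAK kinases attached to the chains phosphorylate STAT3, and STAT3 dimers enter the nucleus. SOCS3 and SOCS1, themselves induced by STAT proteins, then damp the signal at the receptor and the kinases. In squamous carcinomas of the head and neck the tumour cells are a known source of IL6, and active STAT3 is a common feature.

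The sources named the mimic in 2 ways: the series title gave miR-762 and the labels of the mimic samples gave miR-585-5p. Both mature sequences are shown because the difference decides which seed, the stretch that pairs with a target mRNA, the transfected cells carried. They are RefSeq sequences on build GRCh38.p14, 5′ to 3′, with the seed (bases 2 to 8) in capitals; hsa-miR-762 lies at chr16:30893951-30893972 on the plus strand and hsa-miR-585-5p at chr5:169263649-169263670 on the minus strand.
hsa-miR-762: gGGGCUGGggccggggccgagc
hsa-miR-585-5p: cUAGCACAcagauacgcccaga
The seeds are the same at 2 of 7 positions, and G or C makes up 90.9% of miR-762 and 54.5% of miR-585-5p. Sites for either seed in the member transcripts were not analysed here.

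IL6 fell, SOCS3 and IL6ST fell, and LIFR and STAT3 rose in the mimic arrays. IL11, LIF, IL6R, OSMR and SOCS1 did not pass the test. The fall of IL6ST was not firm: the mean of its probe sets gave a log2 difference of -0.02. Its brightest probe set did not pass when all probe sets were tested (limma adjusted p = 0.0599). Values are log2 intensities of each gene's brightest probe set, a difference is mimic minus control, and a gene passed at a Benjamini-Hochberg adjusted p under 0.05 over 14340 genes (limma, a linear model that shares its estimate of the spread across genes). An exact permutation test of 2 arrays against 2 cannot go below p = 0.333. Thus 2 of 10 members rose, against 17.7% of all genes tested, and 3 of 10 fell, against 12.3%. Of all genes, 30.1% passed in one direction or the other. These shares describe the members and are no test, as the set was chosen with earlier results known. Of the genes that passed, 59.0% were higher in the mimic arrays, and 44.0% after a further quantile normalization. The median difference was -0.03 over the members and -0.02 over all genes, and the median absolute difference 0.33 and 0.18. The 2 mimic arrays lay outside the range of the control arrays for 9 of the 10 members, against 70.4% of all genes: above it for 4 (34.2% of all genes) and below it for 5 (36.3%). In bulk RNA, fewer cells with a transcript and less of it per cell cannot be told apart.

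**Figure D1:**
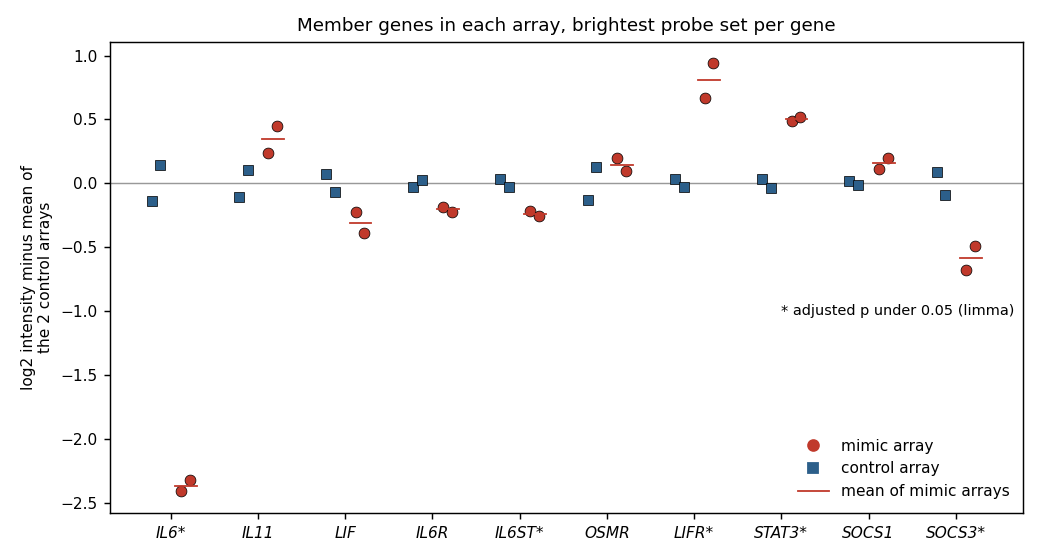
Log2 intensity of the 10 member genes in each of the 4 arrays, minus the mean of the 2 control arrays of that gene (squares control, circles mimic, red bar the mimic mean, asterisk adjusted p under 0.05). IL6 lies lowest, at -2.37 from its controls, LIFR and STAT3 lie at 0.81 and 0.51, and OSMR is the gene whose arrays overlap.

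Replicate arrays were close. Across 49293 probe sets the SD of the log2 difference was 0.158 between mimic arrays, 0.184 between control arrays and 0.328 to 0.334 between arrays of different groups. Squamous markers were bright: the 5 measured here (KRT5, KRT14, DSG3, EPCAM and PERP) had mean log2 levels of 9.22 to 12.07, and 2 of them, KRT5 and KRT14, rose. Their summed intensity was 8993 to 9174 in the mimic arrays and 6407 to 6754 in the controls. For leukocyte markers the sum over 5 genes was 104 to 116 in mimic and 104 to 108 in control arrays, and PTPRC, the defining leukocyte gene, was dim at 1.36. Within that list CD68 rose by 0.34 (adjusted p = 0.0398) and LST1 fell by 0.50 (0.0402). Sums were 55.4 to 62.4 against 66.0 to 68.0 for 6 fibroblast markers, with DCN, COL3A1 and LUM dim, and 79.6 to 79.9 against 88.4 for 5 endothelial markers, with CLDN5 dim. The part of these shifts in the differences reported here was not tested.

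IL6, the gene of interleukin 6, had log2 intensities of 5.76 and 5.85 in the mimic arrays and 8.03 and 8.31 in the control arrays. Both mimic arrays were low, and the gap between the groups was far wider than the gap within either. The group means were 5.80 ± 0.07 and 8.17 ± 0.20 (SD, n = 2), a difference of -2.37 ± 0.11 (SE; 95% interval -2.65 to -2.09), or 5.15-fold (limma adjusted p = 0.00106). Of the 14340 genes tested, SLC39A8 alone, a zinc and manganese transporter gene, had a larger decrease. IL6 was the 1 member of 10 that passed with a fall of 2-fold or more, against 0.195% of all genes. The set was chosen with earlier results known, so that share is no test of it. IL6 passed without control replicate 1 (adjusted p = 0.0460) or control replicate 2 (0.0430). It did not pass without mimic replicate 1 (difference -2.32, adjusted p = 0.0550) or mimic replicate 2 (-2.41, 0.0551), settings in which no gene on the array passed.

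The second probe set of IL6 showed little of this change. It read 3.04 and 3.00 in the mimic arrays and 3.11 and 3.24 in the controls, a difference of -0.16, close to the level of 2.83 below which probe sets were treated as dim. The direction was the same in both probe sets, and the size was not. With the mean of both in place of the brighter one, the difference of IL6 was -1.26 (adjusted p = 0.00109).

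The genes whose values ran most like those of IL6 over the 4 arrays, by the distance between log2 values centred on each gene's mean, were COXFA4L3 (distance 0.389), SERPINB4 (0.510), a squamous serpin gene, and SLC39A8 (0.526). Their differences were -2.07, -2.11 and -2.69. With 4 arrays this likeness describes a low pair and a high pair of arrays and little else.

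LIF, whose product signals through LIFR and gp130, was at 5.91 and 5.75 in the mimic arrays and at 6.21 and 6.07 in the controls. The arrays did not overlap, but the gap was small, and the difference of -0.31 ± 0.09 (SE) did not pass (adjusted p = 0.0541; 95% interval -0.53 to -0.08). Its other probe set above the dim level gave -0.37 and passed when all 31711 probe sets were tested (adjusted p = 0.0184), and the dim one gave -0.29. All 3 probe sets of LIF thus read lower in both mimic arrays than in either control array. LIF fell past the threshold in 8 of 13 alternative settings, including after a further quantile normalization (-0.42, adjusted p = 0.0269) and with the replicate number as a block (adjusted p = 0.0474).

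IL11, a ligand that uses its own receptor chain with gp130, gave probe sets of opposite sign. The brightest read 4.33 and 4.54 in the mimic arrays and 3.98 and 4.20 in the controls (0.35 ± 0.11 SE, adjusted p = 0.0707; 95% interval 0.06 to 0.63). The other probe sets gave -0.11 and -0.23, and their mean with the first left a difference of 0.00. No direction can be given for IL11 from these probe sets. With the replicate number as a block the brightest one passed (adjusted p = 0.0397).

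**Figure D2:**
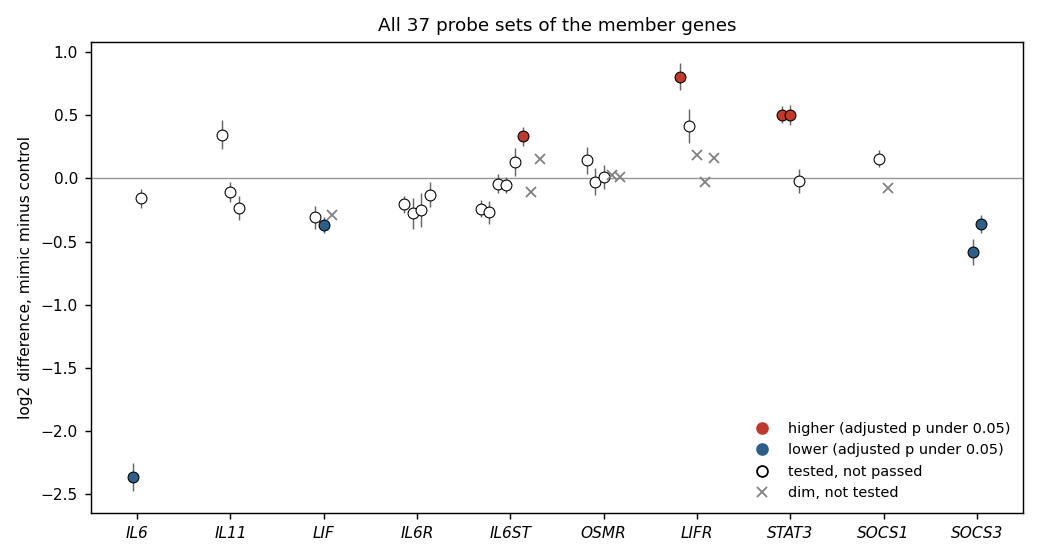
Difference (mimic minus control, log2) of each of the 37 member probe sets, by gene and, within a gene, from the brightest at the left to the dimmest at the right, with limma's standard error as a bar. Probe sets of IL6, LIF, IL6R and SOCS3 lie on one side of 0. Each of the other members, STAT3 and LIFR among them, has probe sets on both sides, and crosses mark 9 dim probe sets that were not tested.

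Among the receptor genes, LIFR moved most. Its brightest probe set read 4.40 and 4.67 in the mimic arrays and 3.76 and 3.70 in the controls, so both mimic arrays were high. The difference was 0.81 ± 0.10 (SE), 1.75-fold (adjusted p = 0.00742), which ranks 497 among the 2544 genes that rose. A second probe set gave 0.41 without passing over all probe sets (adjusted p = 0.0847), and 3 dim ones gave 0.18, 0.16 and -0.02. The call was lost on leaving out any of the 4 arrays (adjusted p = 0.0550 to 0.0837), with differences of 0.67 to 0.94. Without probe sets that can match more than 1 gene or transcript family (names ending in _s_at or _x_at), no LIFR probe set was left above the dim level.

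IL6ST, the gene of the shared chain gp130, was at 9.69 and 9.65 in the mimic arrays and at 9.94 and 9.88 in the controls. The mimic arrays were slightly low, by -0.24 ± 0.06 (SE), 1.18-fold (adjusted p = 0.0409). The call was lost under 9 of 13 alternatives, among them the replicate block (adjusted p = 0.0708), the absence of a filter on dim probe sets (0.0622), the leaving out of any array (0.0841 to 0.196) and the mean of its probe sets (-0.02, 0.809). Over all probe sets this one did not pass (adjusted p = 0.0599). The 1 IL6ST probe set that passed there, a dimmer one, rose by 0.33 (adjusted p = 0.0329). The next brightest gave -0.27, 3 other tested ones lay between -0.05 and 0.13, and 2 dim ones gave -0.11 and 0.16. IL6ST has a pseudogene copy, which its probe sets may not separate.

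IL6R, which encodes the chain that binds interleukin 6 itself, read 5.62 and 5.59 in the mimic arrays and 5.78 and 5.84 in the controls. The difference was -0.20 ± 0.06 (SE; adjusted p = 0.0567; 95% interval -0.36 to -0.05). All 4 of its probe sets were negative, from -0.13 to -0.28, and 3 of them had no overlap between groups. It did not pass in the main setting or with the replicate block (adjusted p = 0.102). It passed after quantile normalization (-0.30, adjusted p = 0.0205), with the lowest 50% of probe sets left out (0.0361) and with 16 added to the intensity (0.0428).

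OSMR, the oncostatin M receptor gene, was the member for which the groups overlapped: 7.23 and 7.13 in the mimic arrays against 6.91 and 7.16 in the controls. Its difference was 0.15 ± 0.10 (SE; adjusted p = 0.327), with a 95% interval from -0.12 to 0.41. Its other 4 probe sets, of which 2 were dim, lay between -0.03 and 0.03.

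STAT3, the transcription factor that the receptors activate, rose. Its brightest probe set read 8.997 and 9.027 in the mimic arrays and 8.541 and 8.473 in the controls, so both mimic arrays were high and the groups did not overlap. The difference was 0.51 ± 0.06 (SE), 1.42-fold (adjusted p = 0.00618), and a second probe set gave 0.50 (adjusted p = 0.0155 over all probe sets). The third did not pass: 6.73 and 6.83 against 6.69 and 6.90, a difference of -0.02 ± 0.10 (SE). The mean of all 3 gave 0.33 (adjusted p = 0.0145). As for LIFR, the call was lost on leaving out any array (adjusted p = 0.0524 to 0.0841), with differences of 0.47 to 0.54. The array measures STAT3 mRNA and not its phosphorylation.

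SOCS3, the feedback inhibitor that binds gp130 and is a standard readout of STAT3 activity, fell. It was at 4.13 and 4.32 in the mimic arrays and at 4.90 and 4.72 in the controls. Both mimic arrays were low, by -0.58 ± 0.10 (SE), 1.50-fold (adjusted p = 0.0155), and the gene ranks 171 among the 1766 that fell. Its second probe set fell by 0.36 (adjusted p = 0.0274 over all probe sets), so both probe sets of SOCS3 passed in the same direction. On leaving out any array the difference was -0.68 to -0.49 and the call was lost (adjusted p = 0.0722 to 0.116).

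SOCS1, an inhibitor of the JAK kinases, lay near the dim level: 3.29 and 3.37 in the mimic arrays and 3.19 and 3.16 in the controls. Its difference of 0.16 ± 0.06 (SE) did not pass (adjusted p = 0.117; 95% interval -0.00 to 0.31), and its other probe set was dim (-0.07). After quantile normalization it passed at 0.22 (adjusted p = 0.0497).

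**Figure D3:**
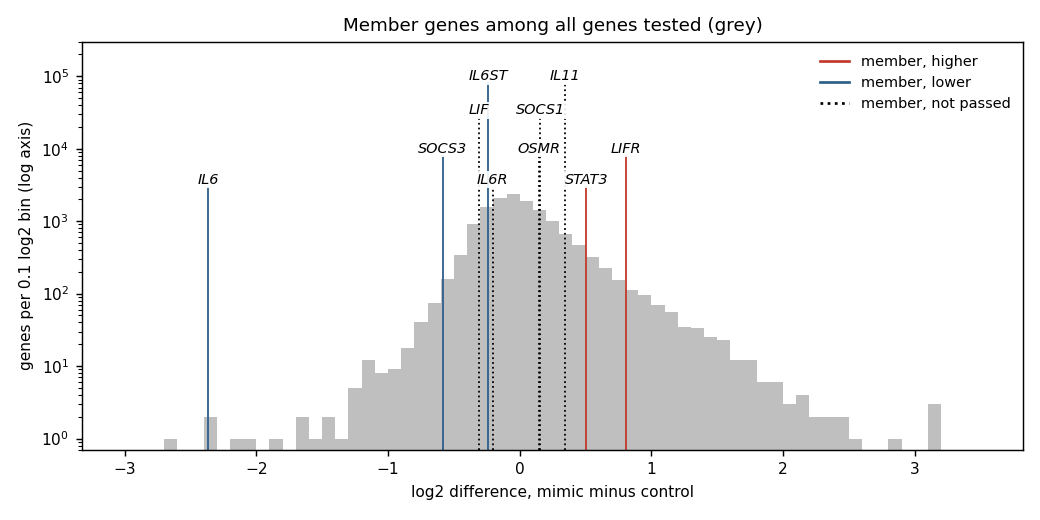
Histogram of the difference (mimic minus control, log2) over all 14340 genes tested, on a log axis of genes per bin, with a line at each member gene. IL6 stands at the far left of the distribution, SOCS3 and LIFR on its shoulders, and the other members within its bulk.

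Over all 37 probe sets of the members, 28 were above the dim level and were tested. Of these 8 passed, against 22.4% of all probe sets tested: 4 rose (LIFR, IL6ST and both brighter STAT3 probe sets), against 14.5%, and 4 fell (IL6, LIF and both of SOCS3), against 7.95%. The groups did not overlap for 20 of the 28, against 66.6%, with the mimic arrays above in 7 (33.4% of all) and below in 13 (33.2%). Probe sets of one gene share their transcript and are not independent of each other.

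The start regions of the members are shown for IL6, SOCS3, STAT3 and LIFR, which carry the larger changes, as the 250 bases before the RefSeq start site (GRCh38.p14), 5′ to 3′ on the gene's strand. Capitals mark letters that match one of 5 patterns searched on both strands. The NF-kB pattern was GGG and CC with any 5 bases between them, which is loose and can match itself in overlapping frames. The C/EBP pattern was TTGCNNAA and the STAT pattern TTCNNNGAA. The AP-1 pattern was TGANTCA. The TATA box was searched as TATAAA. The regions are chr7:22726950-22727199 on the plus strand (IL6), chr17:78360926-78361175 on the minus strand (SOCS3, the first of 2 start sites), chr17:42388443-42388692 on the minus strand (STAT3) and chr5:38595406-38595655 on the minus strand (LIFR, the first of 3 start sites).
IL6: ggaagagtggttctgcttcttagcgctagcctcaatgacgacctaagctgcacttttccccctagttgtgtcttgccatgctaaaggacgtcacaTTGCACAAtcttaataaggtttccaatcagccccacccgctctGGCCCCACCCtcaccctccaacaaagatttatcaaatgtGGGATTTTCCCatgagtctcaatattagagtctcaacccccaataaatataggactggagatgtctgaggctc
SOCS3: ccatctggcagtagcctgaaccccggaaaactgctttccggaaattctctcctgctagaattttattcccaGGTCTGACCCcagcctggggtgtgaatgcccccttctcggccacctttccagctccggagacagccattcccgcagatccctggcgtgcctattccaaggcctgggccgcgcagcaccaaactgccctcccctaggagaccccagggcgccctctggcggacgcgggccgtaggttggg
STAT3: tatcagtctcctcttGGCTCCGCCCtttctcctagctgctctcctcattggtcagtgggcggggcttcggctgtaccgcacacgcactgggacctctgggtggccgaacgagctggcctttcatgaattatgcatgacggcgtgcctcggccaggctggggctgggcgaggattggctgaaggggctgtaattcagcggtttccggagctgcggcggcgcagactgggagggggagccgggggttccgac
LIFR: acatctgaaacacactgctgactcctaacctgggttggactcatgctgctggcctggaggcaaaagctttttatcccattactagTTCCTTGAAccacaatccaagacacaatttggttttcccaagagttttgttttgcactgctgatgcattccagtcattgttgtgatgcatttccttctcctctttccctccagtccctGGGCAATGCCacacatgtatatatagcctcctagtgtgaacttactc

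In the IL6 region the C/EBP pattern matched at 155 to 148 bases before the start, and the NF-kB pattern matched at 112 to 103 bases and, in overlapping frames, at 73 to 63 bases before it. Of 9 members with a start region in the table (LIF was not among them), 8 had an NF-kB match, 3 a C/EBP match (IL6, OSMR and LIFR, the latter at its second start site), 1 an AP-1 match (IL11), 1 a STAT match (LIFR, at 165 to 157 bases before its first start and again at its second) and 1 the TATA letters (LIFR, at its second). In SOCS3 and STAT3 the NF-kB pattern was the one found. Over 35116 RefSeq start regions of the same length, 54.4% held the NF-kB pattern, 9.05% C/EBP, 6.57% AP-1, 6.57% STAT and 10.7% the TATA letters. These shares are per region, while the member counts are per gene over 12 regions. A gene with several regions has more places to match, so the counts and the shares are not like for like. A match describes letters and is neither a bound site nor a cause.

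Other genes of the family fell or did not pass. These lists hold genes by textbook role, and each count stands against 17.7% of all genes higher and 12.3% lower. Of 12 further ligand and receptor genes, 8 were tested, of which 3 fell and 0 rose (limma; 4 of the 8 had an unadjusted p under 0.05 in either direction), with a median difference of -0.25 against -0.02 over all genes. The count of 3 became 1 with the replicate block or with no filter on dim probe sets. Without _s_at, _x_at and _a_at probe sets it was 0, with 6 genes of the list tested. In that setting 700 of all 5222 genes tested rose and 438 fell. IL31RA, which pairs with OSMR to form the receptor of interleukin 31, fell most: 6.61 and 6.46 in the mimic arrays against 7.29 and 7.23 in the controls (-0.72 ± 0.08 SE, 1.65-fold, adjusted p = 0.00453). Its other tested probe set gave a smaller difference of -0.21. CTF1, the cardiotrophin 1 gene, fell by 0.36 (adjusted p = 0.0411), and IL27, whose product is a subunit of interleukin 27, fell by 0.32 (adjusted p = 0.0483).

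Of the kinases, other STAT proteins and adaptors, GRB2 passed. Of 16 genes, 13 were tested, 1 fell, 0 rose (limma; 3 of the 13 had an unadjusted p under 0.05) and 12 did not pass, at a median difference of 0.07. GRB2, an adaptor that links these receptors to the RAS pathway, fell (-0.30 ± 0.07 SE, adjusted p = 0.0300). JAK3, a kinase gene named after its value was seen, had the largest difference of the list: 4.36 and 3.95 in the mimic arrays against 4.75 and 4.60 in the controls. Its groups did not overlap and its 4 probe sets were all negative, but the difference of -0.52 ± 0.15 (SE) did not pass (adjusted p = 0.0553).

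Negative regulators other than SOCS1 and SOCS3 included 6 that rose and 2 that fell. Of 15 genes, 13 were tested (higher in 6, lower in 2), and the median difference was 0.25. SOCS4 rose by 0.95 ± 0.10 (SE), 1.94-fold (adjusted p = 0.00422), although its other probe set gave -0.04. SOCS2, an inhibitor of growth hormone signalling, rose by 0.46 (adjusted p = 0.00768) and both of its probe sets were positive. PTPN1, a phosphatase of JAK kinases, rose by 0.46 with its other probe set at 0.00, and PIAS3, which binds STAT3, rose by 0.43 (adjusted p = 0.0190). The counts became 4 up and 3 down with quantile normalization added and 3 and 0 with the replicate block. They were 4 and 0 with no filter on dim probe sets. Without _s_at, _x_at and _a_at probe sets they were 1 and 1, but only 3 genes of the list were then tested.

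**Figure D4:**
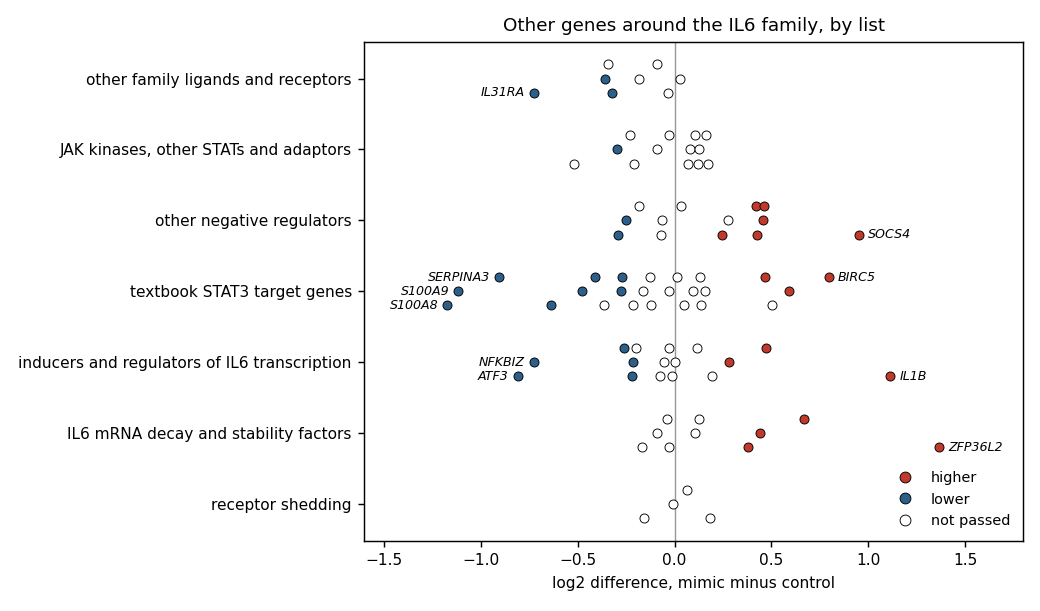
Difference (mimic minus control, log2) of each tested gene in the 7 lists around the member genes; vertical offsets within a list carry no value. Filled points passed (red higher, blue lower); the STAT3 target genes have 8 lower and 3 higher, and the mRNA decay and stability factors 4 higher and none lower.

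Textbook STAT3 target genes went both ways. Among 26 such genes 24 could be tested, and 8 fell (12.3% of all genes did) while 3 rose (17.7% did). The median difference was -0.13. The largest decreases were those of the calgranulin genes S100A8 (9.66 and 9.60 against 10.95 and 10.66; -1.17 ± 0.11 SE) and S100A9 (-1.12 ± 0.10) and of SERPINA3, an acute phase antiprotease gene (-0.91 ± 0.12). S100A8 and S100A9 belong to the same gene family, each was read by 1 tested probe set, and cross-hybridisation was not tested. BIRC5, which encodes survivin, rose by 0.80 ± 0.10, with 2 of its 11 probe sets negative; survivin is also a component of the mitotic chromosomal passenger complex. With quantile normalization added, 3 targets rose and 11 fell, while over all genes 2058 rose and 2619 fell. With an intensity trend and a robust prior, 6 targets rose and 12 fell, against 3139 and 2103 over all genes. With the replicate block 3 targets rose and 6 fell. Without _s_at, _x_at and _a_at probe sets 1 rose and 3 fell, with 10 targets tested.

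The list of inducers and regulators of IL6 transcription holds activators, NF-kB and AP-1 subunits, and also the NF-kB inhibitors NFKBIA and TNFAIP3 and the repressor ATF3. Among 17 such genes 16 could be tested, and 5 fell while 3 rose. The median difference was -0.04. The counts became 2 down and 2 up with the replicate block and 3 and 3 with no filter on dim probe sets. Without _s_at, _x_at and _a_at probe sets they were 1 down and 3 up, with 8 genes of the list tested. IL1B and IL1A, which encode interleukin 1 cytokines that induce IL6, rose by 1.11 ± 0.06 and 0.47 ± 0.07 (SE; adjusted p = 0.0013 and 0.0100). NFKBIZ, the gene of an IκB protein needed for IL6 transcription, was at 8.02 and 8.03 in the mimic arrays and 8.75 and 8.76 in the controls and fell by 0.73 ± 0.06 (adjusted p = 0.00216). ATF3, the gene of a stress-induced factor known to repress IL6 transcription, fell by 0.81 ± 0.07 (adjusted p = 0.00279), with its 3 probe sets from -0.81 to -0.19.

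Factors that act on the stability of IL6 and similar mRNAs rose or did not pass. All 10 were tested, 4 rose and 0 fell (limma; 4 of the 10 had an unadjusted p under 0.05), with a median of 0.12. ZFP36L2, which binds AU-rich elements and promotes mRNA decay, read 9.40 and 9.46 in the mimic arrays against 8.06 and 8.06 in the controls (1.37 ± 0.06 SE, 2.58-fold, adjusted p = 0.00102), with its 4 probe sets from 0.22 to 1.46. ELAVL1, whose product HuR stabilises such mRNAs, rose by 0.67 ± 0.06 (adjusted p = 0.00263) with all 5 probe sets positive. RC3H2, a Roquin decay factor gene, rose by 0.44, and HNRNPD, whose product AUF1 binds AU-rich elements, by 0.38. ZC3H12A, which encodes the IL6 mRNA nuclease Regnase-1 and was named after its value was seen, did not pass (-0.04 ± 0.06 SE, adjusted p = 0.653).

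For receptor shedding, by which soluble IL6R is released, 0 of 4 genes passed (limma; 1 of the 4 had an unadjusted p under 0.05). That gene was ADAM17, the main sheddase of IL6R, at 9.39 and 9.34 in the mimic arrays against 9.49 and 9.54 in the controls (-0.16 ± 0.06 SE, adjusted p = 0.106). Its 3 tested probe sets ranged from -0.16 to 0.10, and 2 of them had the opposite sign. With quantile normalization added, 1 gene of the list fell past the threshold (limma adjusted p = 0.0387). The same count was found with an intensity trend and a robust prior (limma adjusted p = 0.0242).

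Without mimic replicate 1 or 2, no gene of any of the 7 lists passed, as no gene on the array did (limma; 4198 and 4269 genes had an unadjusted p under 0.05). Without control replicate 1, 1 STAT3 target was higher and 2 lower, 1 gene of the IL6 transcription list higher and 2 lower, 1 negative regulator higher and 2 stability factors higher. Without control replicate 2, 3 STAT3 targets were higher and 3 lower, and the other counts were the same. In both settings the family, kinase and shedding lists had none.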

How the data were processed

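Total RNA of SCC-15 cells was measured on Affymetrix expression arrays, 2 per group. The deposited values are intensities on a linear scale, made with RMA per the submitters' processing notes. RMA as usually run corrects background, normalizes by quantiles and summarises each probe set, with software and version not given in the sources used here. Medians of the arrays were alike, 17.2 to 17.5, and a general shift in RNA content would not be seen. The number of arrays limits the precision.

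Groups were taken from the sample labels. Log2 was taken of the intensities, the 30% of probe sets with the lowest mean (log2 under 2.83) were left out, and each gene was read by its brightest remaining probe set. Of 49293 probe sets, 44988 had 1 gene symbol, 1832 several and 2473 none; 44961 were matched to RefSeq by gene identifier. Genes (14340) and probe sets (31711) were tested in limma 3.58.1 (R 4.3.3) with lmFit and eBayes, without a replicate block. P-values were adjusted by Benjamini-Hochberg over all genes or all probe sets. The procedure was also run on simulated data with independent noise, which cannot speak to effects shared by arrays or to replicates that are technical only. Samples with the same replicate number did not deviate together (correlation of deviations -0.00105 over 14340 genes), so they were not treated as pairs. The members and lists were chosen with earlier results of these data known. Besides the members and the cell type markers, a rule named at most 4 genes of a list, those that passed without overlap and moved furthest. Where none passed, it named the 1 with the largest absolute moderated t, which gave ADAM17. The 3 genes nearest to IL6 were also named. JAK3, ZC3H12A, NFKBIA and TNFAIP3 were named outside this rule, after their values were seen. Alternatives were a further quantile normalization, other filters on dim probe sets, 16 added to the intensity, an intensity trend with a robust prior, the mean of a gene's probe sets, fewer probe set classes, the replicate block and each array left out; leaving out only _s_at and _x_at probe sets was chosen after seeing the data. Scan batches were not analysed here.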

Additional observations from a re-analysis of the deposited data

How the results depend on the processing

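No member changed direction under any alternative. IL6 kept its call in every alternative except those without mimic replicate 1 or 2. LIFR, STAT3 and SOCS3 lost theirs only when an array was left out. Of the members, 5 fell after quantile normalization, with the lowest 50% of probe sets left out or with 16 added to the intensity (main 3), and 1 rose without _s_at and _x_at probe sets or also without _a_at ones (main 2). Leaving out 1 array gave 0 members higher and 0 to 1 lower, IL6 being the 1 (limma; 4 to 8 of the 10 had an unadjusted p under 0.05). With the replicate block, LIF (adjusted p = 0.0474) and IL11 (0.0397) passed, IL6ST did not (0.0708), and no other member call changed; the samples share only a number.

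Over all genes, 2544 were higher and 1766 lower. The counts were 700 and 438 without _s_at, _x_at and _a_at probe sets (5222 genes tested), 979 lower with the replicate block, and 0 to 796 higher and 0 to 167 lower with 1 array left out. Over all probe sets, 4591 were higher and 2522 lower. After quantile normalization 3898 were lower, and with no filter 1614. Without _s_at, _x_at and _a_at probe sets they were 862 and 484, without _s_at and _x_at 2902 and 1577, and with the block 2917 and 878. With any array left out 0 passed (limma; 8059 to 10783 had an unadjusted p under 0.05). The cause of these moves was not tested, beyond the fewer features or arrays that some settings hold. IL6, IL6R, LIFR and SOCS1 could not be tested without _s_at, _x_at and _a_at probe sets, LIFR also without _s_at and _x_at ones, and SOCS1 also without the lowest 50%. A scan batch as a block and another background correction were not run. Low levels, as for SOCS1, LIFR and SOCS3, limit what can be seen. With 16 added to the intensity, the difference of LIFR was 0.42 in place of 0.81, and that of SOCS3 was -0.34 in place of -0.58.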
